A study of Mus musculus with 3 samples.

Results

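Fatty acid oxidation was followed through 32 genes chosen by symbol, of which 31 had a probe set that the array's platform annotation pairs with that gene alone, among 19938 genes measured in the series. Of the 31, 22 encode enzymes assigned to mitochondria and 9 encode enzymes assigned to peroxisomes, by textbook location. The remaining gene, Cpt1b, had only a probe set that it shares with a read-through transcript, and that probe set is described apart and counted nowhere. Total RNA from 3 mouse samples was measured, each on 1 array: DiBA, cultured cells which the series title places among directly converted brown adipocytes; BA, whose label gives brown adipose tissue as source and whose description speaks of cultured cells; and cultured mouse fibroblasts. The labels used here name no conversion factor, agent, strain, age or passage, and whether BA was tissue or cultured cells is not settled by them. With 1 array a group there is no replicate error, no test and no p-value, so every value describes these 3 arrays, and the number of arrays limits the precision.

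Mitochondrial beta-oxidation shortens a fatty acid step by step: the chain is activated to its acyl-CoA, carried through the mitochondrial membranes as an acylcarnitine, and then passes repeatedly through dehydrogenation, hydration, a further dehydrogenation and thiolytic cleavage. The electrons of the first dehydrogenation reach the respiratory chain through the electron transfer flavoprotein. Peroxisomes run a parallel pathway for very long and branched chains, in which an oxidase takes the first step and passes electrons to oxygen, and they export shortened products to mitochondria. Brown adipocytes burn fatty acids in uncoupled mitochondria to make heat and are rich in both organelles.

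The deposited values are linear intensities, with medians of 71.5 for DiBA, 67.7 for BA and 67.8 for fibroblasts. Differences are of log2(intensity + 1), which understates the change of dim genes, and a gene was counted as higher or lower at 2-fold or more where the brighter array of the pair reached 69.2, the median of all probe sets. Intensities of different probe sets are not compared with each other. Markers of fat matched the labels of DiBA and BA: all 7 brown adipocyte markers exceeded their fibroblast intensity by 2-fold or more, with summed intensities of 25532 in DiBA and 26431 in BA, against 286 in fibroblasts. With intensities under 69.2 raised to that level, 6 of the 7 did. Elovl3, at 76.7 in DiBA and 99.4 in BA, against 20.45 in fibroblasts, no longer reached 2-fold. All 7 general adipocyte markers measured also exceeded fibroblasts by 2-fold or more, with summed intensities of 36489 in DiBA and 38282 in BA, against 749 in fibroblasts. The 7 fibroblast markers measured summed to 6927 in DiBA and 3454 in BA, against 25470.0 in fibroblasts. Of these 7, 5 in DiBA and 6 in BA lay below fibroblasts by 2-fold or more. Between DiBA and BA, only 2 of the 7, Lox and Fn1, differed by 2-fold or more, both higher in DiBA. The DiBA array also carried markers that its label does not name. All 12 skeletal muscle markers reached 69.2 in DiBA and BA, with sums of 14557 in DiBA and 16808 in BA, against 1402 in fibroblasts. The 6 endothelial markers, all past 69.2 in DiBA and BA, summed to 2768 in DiBA and 3296 in BA, against 404 in fibroblasts. The 7 macrophage markers, likewise, summed to 3280.4 in DiBA and 3068 in BA, against 1031 in fibroblasts. All 8 hepatocyte markers measured lay under 69.2 on all 3 arrays. Muscle, too, expresses many oxidation enzymes, and the part of these cell types in the differences was not tested. In bulk RNA, fewer cells of a type and less RNA per cell cannot be told apart.

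The comparison of DiBA with fibroblasts asks how far the oxidation genes stood apart after conversion. In DiBA, 27 of the 31 genes exceeded fibroblasts by 2-fold or more and 0 lay as far below, where 14.7% of the 11621 genes past the level filter were higher and 13.2% lower. Their median difference was 2.71, against 0.00 over all genes. Against the same fibroblasts, 29 genes were higher in BA and 1, Cpt1a, was lower, where 16.3% of 11663 genes were higher and 16.4% lower. Their median difference there was 2.86, again against 0.00 over all genes. Both comparisons share the fibroblast array. The level filter passed 30 of the 31 genes in each, the exception being Acox2.

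**Figure D1:**
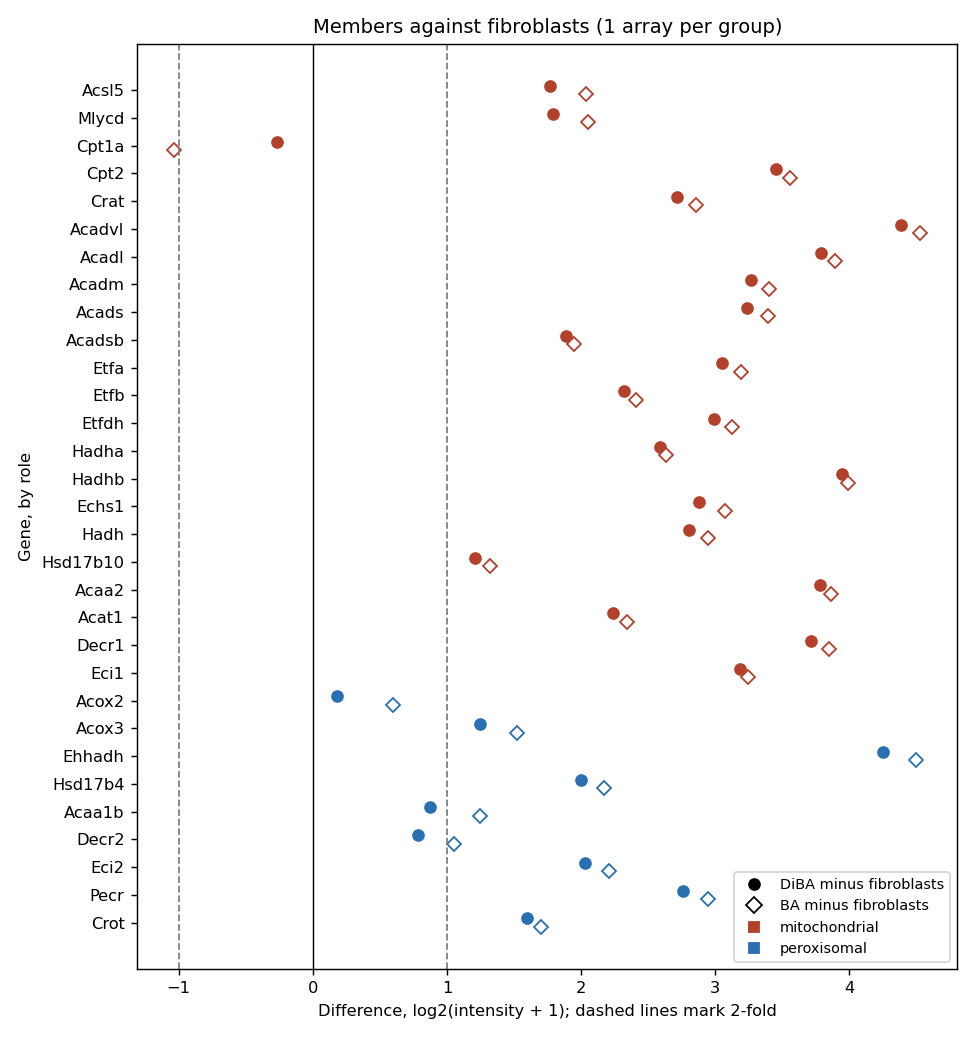
Differences of log2(intensity + 1) for the 31 genes, listed by role, with DiBA minus fibroblasts as filled circles and BA minus fibroblasts as open diamonds, red for mitochondrial and blue for peroxisomal enzymes, 1 array per group. Dashed lines mark 2-fold. The 27 genes to the right in DiBA run from Hsd17b10 at 1.21 to Acadvl at 4.39, and Cpt1a lies left of 0 on both.

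Entry into the mitochondrion was divided. Acsl5, an acyl-CoA synthetase that activates long chains, had an intensity of 1059 in DiBA and 1274 in BA, against 309.8 in fibroblasts (3.41-fold and 4.10-fold). Mlycd, which breaks down malonyl-CoA, the inhibitor of carnitine palmitoyltransferase, had 249.7 in DiBA and 298 in BA, against 71.3 in fibroblasts (3.47-fold and 4.14-fold). Both were higher in DiBA and in BA than in fibroblasts, by less than most genes of the pathway. Cpt2, the palmitoyltransferase of the inner membrane that regenerates the acyl-CoA, was at 2868 in DiBA and 3082 in BA, against 261 in fibroblasts (10.9-fold and 11.8-fold). Crat, which moves acetyl groups on and off carnitine in mitochondria and peroxisomes, was at 3914 in DiBA and 4333 in BA, against 596 in fibroblasts (6.55-fold and 7.25-fold).

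Cpt1a, the liver-type enzyme of the outer membrane that commits long chains to oxidation, went the other way. Its intensity was 395 in DiBA and 233 in BA, against 477 in fibroblasts, which is 1.21-fold lower in DiBA and 2.04-fold lower in BA. It was the only gene of the 31 with its highest value in fibroblasts, and in BA it passed the 2-fold line narrowly, at -1.03 on the log2 scale. With a pseudocount of 16 in place of 1 that difference was -0.99, short of 2-fold. The muscle-type isoform Cpt1b, known as the main form in brown fat, has the shared probe set. RefSeq lists the partner, Gm44502, as a Chkb-Cpt1b read-through transcript annotated as a long non-coding RNA, so the signal cannot be given to either transcript. That probe set read 4387 in DiBA and 4699 in BA, against 70.9 in fibroblasts, a difference of 5.93 for DiBA and 6.03 for BA on the log2 scale, above those of all 31 genes.

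The acyl-CoA dehydrogenases, which open each cycle and differ in the chain length they accept, were higher in all 5 cases, with a median difference of 3.27 in DiBA and 3.40 in BA. Acadvl, for very long chains, was at 3372 in DiBA and 3721 in BA, against 160.3 in fibroblasts (20.9-fold and 23.1-fold), and only 103 of the 11621 genes past the filter had a larger positive difference in DiBA. Acadl, for long chains, was at 5149.6 in DiBA and 5544 in BA, against 372 in fibroblasts (13.8-fold and 14.9-fold). Acadm, for medium chains, was at 5944 in DiBA and 6516 in BA, against 616 in fibroblasts (9.63-fold and 10.6-fold). Among these 3 the difference from fibroblasts was largest for Acadvl and smallest for Acadm, in DiBA and in BA, with no replicate error to set beside that order. Acads, for short chains, was at 2395 in DiBA and 2671 in BA, against 253 in fibroblasts (9.41-fold and 10.5-fold). Acadsb, which serves short branched chains and isoleucine breakdown, stood nearest to fibroblasts, with 1234 in DiBA and 1287 in BA, against 333 in fibroblasts (3.69-fold and 3.85-fold).

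The carriers that take electrons from these dehydrogenases were higher as well, in 3 of 3 cases. Etfa, the alpha subunit of the electron transfer flavoprotein, was at 3349.8 in DiBA and 3704 in BA, against 404 in fibroblasts (8.27-fold and 9.15-fold). Etfb, its beta subunit, was at 7581 in DiBA and 8069.9 in BA, against 1517 in fibroblasts (5.00-fold and 5.32-fold). On the log2 scale the beta subunit differed from fibroblasts by 2.32 in DiBA, less than the 3.05 of the alpha subunit. Etfdh, which hands the electrons to ubiquinone, was at 2777 in DiBA and 3048 in BA, against 349 in fibroblasts (7.93-fold and 8.71-fold).

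For the later steps, 7 of 7 mitochondrial genes were higher in DiBA and in BA. Hadha and Hadhb encode the subunits of the trifunctional protein, which carries out hydration, dehydrogenation and thiolysis of long chains. Hadha was at 5665 in DiBA and 5836 in BA, against 940.0 in fibroblasts (6.02-fold and 6.20-fold). Hadhb had probe sets reading 6263 and 5989 in DiBA and 6480 and 6185 in BA, against 417 and 377 in fibroblasts, and their mean gave 15.4-fold in DiBA and 15.9-fold in BA. The Hadhb probe sets gave nearly the same difference from fibroblasts, 3.90 and 3.99 in DiBA, and both lay above that of Hadha, at 2.59. These genes lie head to head: in the RefSeq promoter table of build GRCm38.p6 their starts are 273 bases apart on chromosome 5, Hadhb on the plus strand and Hadha on the minus strand. The stretch shared by both promoter windows, chr5:30155003-30155230, is shown because 1 piece of DNA lies upstream of both genes. It is printed on the plus strand, 5′ to 3′, in lower case throughout.
Hadha and Hadhb: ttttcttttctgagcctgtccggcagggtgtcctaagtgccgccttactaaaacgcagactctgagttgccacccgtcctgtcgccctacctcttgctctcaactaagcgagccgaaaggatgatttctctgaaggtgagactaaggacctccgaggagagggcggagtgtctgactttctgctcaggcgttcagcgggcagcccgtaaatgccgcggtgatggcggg

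Short-chain products are handled by separate enzymes. Echs1, the short-chain enoyl-CoA hydratase, was at 2310.3 in DiBA and 2644 in BA, against 314 in fibroblasts (7.34-fold and 8.40-fold). Hadh, the short-chain hydroxyacyl-CoA dehydrogenase, was at 7167 in DiBA and 7881 in BA, against 1023 in fibroblasts, a log2 difference of 2.81 in DiBA and 2.94 in BA. Acaa2, a thiolase that releases acetyl-CoA in the last step, was at 7813 in DiBA and 8263 in BA, against 566 in fibroblasts (13.8-fold and 14.6-fold). These 3 were separated from fibroblasts more widely than the next pair, Acat1 and Hsd17b10, in DiBA and in BA. Acat1, the acetoacetyl-CoA thiolase of ketone and isoleucine metabolism, was at 4021 in DiBA and 4329 in BA, against 854 in fibroblasts (4.71-fold and 5.07-fold). Hsd17b10, a hydroxyacyl-CoA dehydrogenase of isoleucine breakdown that is also a subunit of mitochondrial RNase P, was at 2663 in DiBA and 2878 in BA, against 1152 in fibroblasts (2.31-fold and 2.50-fold), the smallest difference among the 27 genes higher in DiBA. Decr1 and Eci1 deal with double bonds of unsaturated chains, as a dienoyl-CoA reductase and an enoyl-CoA isomerase. Decr1 was at 2304 in DiBA and 2528 in BA, against 175 in fibroblasts (13.1-fold and 14.4-fold). Eci1 was at 2299 in DiBA and 2396 in BA, against 252 in fibroblasts (9.08-fold and 9.46-fold).

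Genes of this pathway are textbook targets of PPAR nuclear receptors, which bind, together with RXR, 2 copies of AGGTCA in the same direction with 1 base between them (a direct repeat 1). The 250 bases before the start of each gene were searched on both strands in the RefSeq promoter table of build GRCm38.p6, which matched 26 of the 32 genes. The exact repeat occurred in 0 of the 26 and in 0.0335% of all 32851 windows. With at most 2 mismatches it occurred in 2 of the 26 (7.69%), Echs1 and Etfa, and in 3.24% of all windows. AGGTCA alone, which lies within the repeat in Echs1, occurred in 4 of the 26 (15.4%) and in 14.0% of all windows. The units differ slightly: the 26 genes have 27 windows and were counted by gene, while the background was counted by window. A match is a description of letters, and its absence from these windows says nothing of the factor. The stretch shared by Hadha and Hadhb held neither the element nor the repeat with up to 2 mismatches. The matches are shown with up to 10 bases on either side, along each gene's own strand, 5′ to 3′, with the matched letters in capitals, since they include the gene that went against the rest, Cpt1a. They lie at chr7:140116482-140116514 for Echs1, chr9:55512298-55512330 for Etfa, chr11:70015500-70015525 for Acadvl and chr3:153944877-153944893 for Acadm, all on the minus strand, and at chr19:3323197-3323222 for Cpt1a, on the plus strand. In Etfa, Acadm and Cpt1a the match is on the strand opposite to the gene.
Echs1: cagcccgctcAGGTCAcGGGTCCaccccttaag
Etfa: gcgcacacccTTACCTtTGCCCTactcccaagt
Acadvl: ggatcaccctAGGTCAggtagaatac
Acadm: gTGACCTtcgggctccg
Cpt1a: gtttccttacTGACCTcctccccgca
AGGTCA was present both upstream of Acadvl, with a 20.9-fold difference in DiBA, and upstream of Cpt1a, which was 1.21-fold lower there.

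Among the 31 genes, peroxisomal enzymes differed less than mitochondrial ones, with 6 of 9 genes higher in DiBA and 8 of 9 in BA. Their median difference from fibroblasts was 1.59 in DiBA and 1.70 in BA, against 2.93 and 3.10 for the 22 mitochondrial genes. In DiBA, 20 of the 22 mitochondrial genes lay above the peroxisomal median and 8 of the 9 peroxisomal genes lay below the mitochondrial median, and the counts were the same in BA. The ranges overlapped, from 0.78 to 4.25 for the 8 peroxisomal genes past the level filter, whose median was 1.80, and from -0.27 to 4.39 for mitochondrial genes in DiBA. Genes are not replicates, so the gap of 1.34 in DiBA and 1.40 in BA has no error and was not tested. That gap includes Acox2, which did not pass the level filter. Without Acox2 the peroxisomal median was nearer to the mitochondrial one, at 1.80 in DiBA and 1.935 in BA. Left without the genes whose products are known in both places, Mlycd, Crat and Eci2, the gap was 1.60 in DiBA and 1.55 in BA. As a difference of means it was 1.01 and 0.853. The further lists described below mix locations, with nuclear receptor genes such as Ppara in the mitochondrial list and Mpv17, of mitochondria, in the peroxisomal list. They are no like comparison of compartments, and whether the gap holds in them was not tested. In DiBA their medians were 1.43 for the mitochondrial and carnitine list and 1.38 for the peroxisomal list. In BA they were 1.61 and 1.78.

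**Figure D2:**
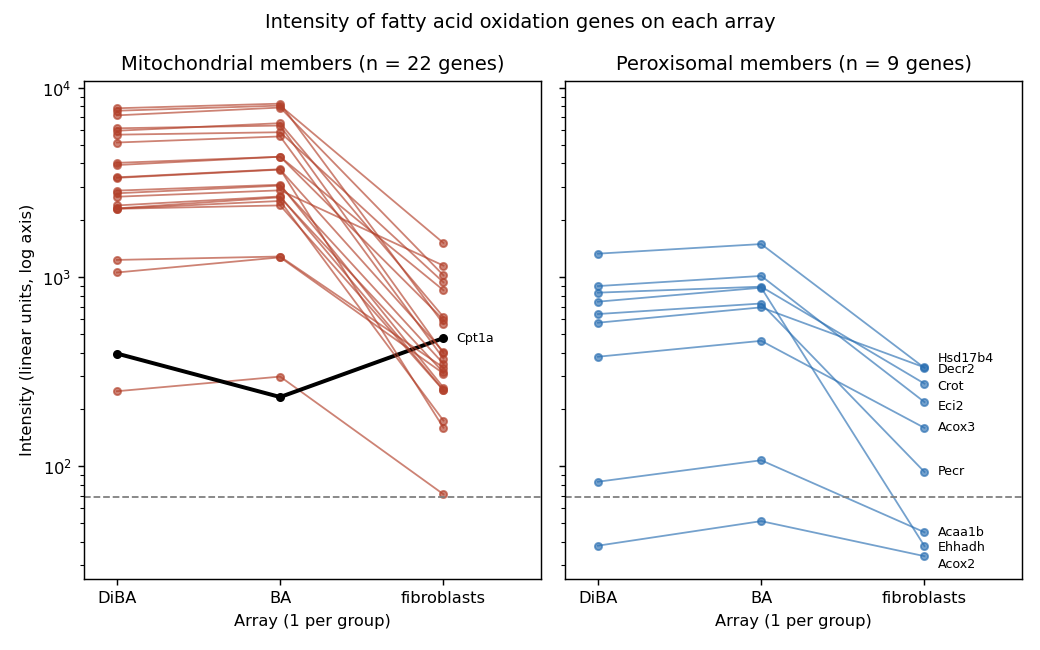
Intensity (log axis) of each gene on the DiBA, BA and fibroblast arrays, 1 point per array and a line per gene, for 22 mitochondrial (left) and 9 peroxisomal (right) genes. The dashed line marks 69.2, the median of all probe sets. Of the 31 genes, 30 run highest in BA, then DiBA, then fibroblasts, and Cpt1a, in black, runs in the opposite order.

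The peroxisomal genes were uneven among themselves. The oxidases take the first step: Acox3, which handles branched chains, was at 380.0 in DiBA and 461 in BA, against 159.9 in fibroblasts (2.37-fold and 2.87-fold). Acox2, which acts on branched chains and bile acid intermediates, read 38.1 in DiBA and 51.4 in BA, against 33.6 in fibroblasts, under 69.2 on every array, so no difference is drawn from it. After the oxidase, hydration and dehydrogenation are joined in a bifunctional enzyme, of which there are unlike forms. Ehhadh, the L-bifunctional enzyme, was at 743 in DiBA and 880.0 in BA, against 38.0 in fibroblasts (19.1-fold and 22.6-fold), the only peroxisomal gene above the mitochondrial median. Its fibroblast value lay under 69.2, and with low intensities raised to that level the fold was 10.6 in DiBA and 12.6 in BA. Hsd17b4, the D-bifunctional enzyme, was at 1332 in DiBA and 1497 in BA, against 332 in fibroblasts (4.01-fold and 4.50-fold), a smaller difference than that of Ehhadh. Acaa1b, a thiolase, was at 83.0 in DiBA and 108 in BA, against 44.9 in fibroblasts (1.83-fold and 2.37-fold), close to 69.2. Raised in the same way, its fold was 1.20 in DiBA and 1.55 in BA, which ends its place among the genes higher in BA.

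Among the auxiliary enzymes, Pecr, an enoyl-CoA reductase that saturates a double bond, stood furthest from fibroblasts, at 639 in DiBA and 726 in BA, against 93.5 in fibroblasts (6.77-fold and 7.69-fold). Eci2, an enoyl-CoA isomerase known in peroxisomes and mitochondria, was at 898 in DiBA and 1016 in BA, against 219 in fibroblasts (4.09-fold and 4.62-fold). Decr2, the peroxisomal dienoyl-CoA reductase, was at 575 in DiBA and 693 in BA, against 334 in fibroblasts (1.72-fold and 2.07-fold). The last passed 2-fold in BA only narrowly and not in DiBA, while Decr1, which encodes the mitochondrial reductase, was 13.1-fold higher in DiBA and 14.4-fold higher in BA. Crot, which exports shortened chains as carnitine esters, was at 829 in DiBA and 891 in BA, against 274 in fibroblasts (3.02-fold and 3.25-fold). With the isomerases, too, the mitochondrial gene differed more, 9.08-fold for Eci1 against 4.09-fold for Eci2 in DiBA.

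The direct comparison of DiBA with BA asks whether the converted cells matched the brown adipose sample. A 2-fold difference was reached by 0 of the 31 genes in either direction. Of the 11076 genes past the level filter, 194 (1.75%) were higher in DiBA and 0 were lower. The absence of lower genes was therefore not particular to the 31. In direction, 29 of the 30 genes past the filter read lower in DiBA than in BA, where 41.3% of genes past the filter did, or 55.9% of the 8179 whose intensities were not identical on both arrays. The median difference of the 31 was -0.14, and -0.21 with each array centred on its median. The DiBA intensities were between 77.0% (Acaa1b) and 97.1% (Hadha) of those in BA for these 29 genes, with a median of 90.9%. Cpt1a, highest in fibroblasts like the 7 fibroblast markers, was the exception at 169.8%, 1.70-fold higher in DiBA. These directions were not particular to the oxidation genes. Below 0 were also 12 of 12 skeletal muscle, 6 of 6 endothelial, 6 of 7 brown adipocyte and 6 of 7 general adipocyte markers. Macrophage markers were divided, with 3 of 7 below 0 and 3 above, and all 7 fibroblast markers were above 0. At a threshold of 1.5-fold, Cpt1a was the single gene of the 31 past it. Of the 11076 genes past the filter, 302 had a larger positive difference than Cpt1a, and the share past 1.5-fold was not counted.

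**Figure D3:**
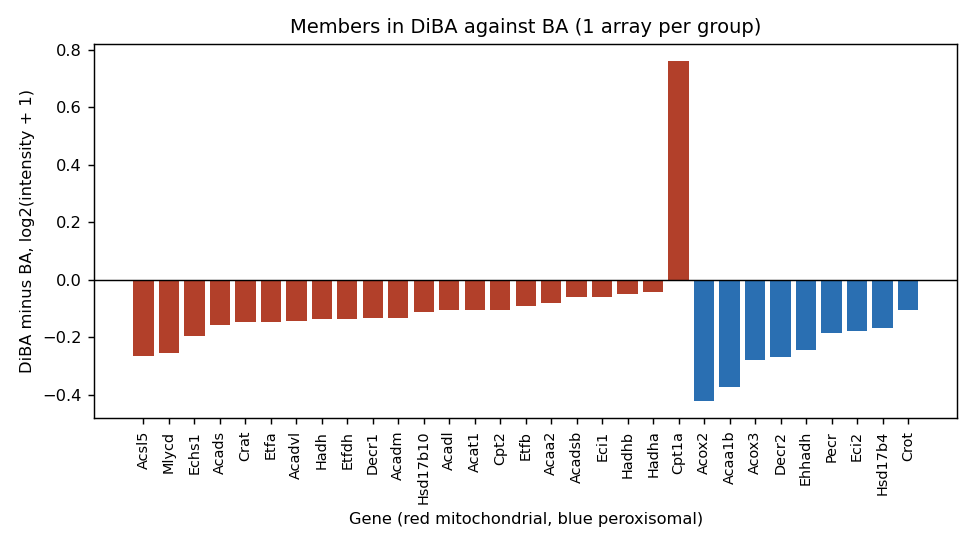
DiBA minus BA, log2(intensity + 1), for the 31 genes, ordered within mitochondrial (red) and peroxisomal (blue) enzymes, 1 array per group. Bars start at 0. All bars but that of Cpt1a, at 0.76, lie below 0, down to -0.37 for Acaa1b among genes past the level filter; the bar of Acox2 comes from intensities under 69.2.

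By compartment, the median difference was -0.12 for the mitochondrial and -0.24 for the peroxisomal genes, or -0.21 for the 8 peroxisomal genes past the level filter. With low intensities raised to 69.2 the peroxisomal median was -0.18, and the gap between the medians was 0.062, against 0.122 without raising. The mitochondrial genes nearest to BA were Hadha at -0.04, Hadhb at -0.05, Eci1 at -0.06 and Acadsb at -0.06. Hadha and Hadhb, which differed from fibroblasts by unlike amounts, lay side by side here. Those furthest below BA were Acsl5 at -0.27, Mlycd at -0.26 and Echs1 at -0.19. Among peroxisomal genes, Crot at -0.10 and Hsd17b4 at -0.17 were nearest, and Acaa1b at -0.37, Acox3 at -0.28 and Decr2 at -0.27 furthest among those past the filter. Marker lists of the same arrays had medians of -0.12 for brown adipocyte, -0.07 for general adipocyte, 0.00 for macrophage, -0.21 for skeletal muscle and -0.29 for endothelial genes, with 12 of 12 muscle and 6 of 6 endothelial genes below 0. Of the 7 brown adipocyte markers, Prdm16 alone was above 0, at 2.28, with 1084 in DiBA and 223 in BA. All 7 fibroblast markers measured were above 0, with a median of 0.42. The part of these in the differences of the oxidation genes was not tested.

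Genes outside the 31 gave the setting. A mitochondrial and carnitine list held 26 further genes, of which 22 were measured. Besides oxidation, carnitine and ketone genes it holds others, among them Ppara, Ppard, Acacb and Fabp3. In DiBA, 13 of the 22 exceeded fibroblasts by 2-fold or more and 1 lay below, at a median difference of 1.43. The BA array had 14 higher and 1 lower, at a median of 1.61. Of all genes past the level filter, 14.7% were higher and 13.2% lower in DiBA, and 16.3% and 16.4% in BA. Where a gene lay under 69.2 in fibroblasts, its difference is given with that array raised to 69.2. Ppara, the nuclear receptor that drives oxidation genes, read 1827 in DiBA and 2179 in BA, against 43.2 in fibroblasts, a raised difference of 4.70 in DiBA and 4.96 in BA. Acacb, which makes the malonyl-CoA that restrains carnitine palmitoyltransferase, read 2276 in DiBA and 2578 in BA, against 60.1 in fibroblasts, a raised difference of 5.02 in DiBA, so the gene of the enzyme that forms the inhibitor and Mlycd, whose product removes it, were both higher. Fabp3, a fatty acid carrier of heart and muscle, differed by 3.87 in DiBA, and Acad12, listed as an acyl-CoA dehydrogenase, by 2.04 in BA, raised from a fibroblast intensity of 16.5. The lower gene was Cpt1c, the brain-type relative of Cpt1a, with 139.5 in DiBA and 82.6 in BA, against 447 in fibroblasts. Acsl4, an acyl-CoA synthetase for arachidonic acid, differed by -0.69 and -0.93, short of 2-fold, and the receptor gene Ppard by 0.00 and -0.01. Against BA, Cpt1c was 0.75 higher in DiBA on the log2 scale, close to the value of Cpt1a.

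Of 32 further peroxisomal enzymes and carriers, 30 were measured, with 18 above fibroblasts by 2-fold or more in DiBA and 1 below, and a median of 1.38. The BA array had 19 higher and 2 lower, at a median of 1.78. Over all genes past the filter, 14.7% were higher and 13.2% lower in DiBA, and 16.3% and 16.4% in BA. Slc27a2, which activates very long chains, read 1971 in DiBA and 2191 in BA, against 16.7 in fibroblasts, a raised difference of 4.81 in DiBA and 4.97 in BA. Abcd2, a transporter of acyl-CoA into the peroxisome, read 1421 in DiBA and 1485 in BA, against 33.0 in fibroblasts, a raised difference of 4.34 in DiBA and 4.40 in BA. Phyh, which starts the alpha-oxidation of phytanic acid, differed by 4.34 and 4.49. At the other end, Mpv17, which encodes an inner membrane protein of mitochondria and was placed in this list, differed by 0.05 and 0.08. Of 17 genes of peroxisome assembly, 14 were measured, and 8 were higher in DiBA and 8 in BA, with 0 lower and medians of 1.23 and 1.47. Pex11a, a factor of peroxisome proliferation, had raised differences of 3.35 and 3.53. Pex16, of membrane assembly, differed by 2.25 and 2.43, and Pex6, an ATPase that recycles the import receptor, by 1.92 and 2.12. Pex11g and Pex14 were among the lowest, at 0.43 and 0.44 in DiBA and 0.43 and 0.53 in BA. Pex5, the import receptor, was at 0.56 in DiBA and Pex2 at 0.73 in BA.

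Between DiBA and BA, 0 genes of these 3 lists reached 2-fold in either direction. Few genes did at all: of the 11076 past the filter, 194 (1.75%) were higher in DiBA and 0 were lower. The list medians were -0.12 for the mitochondrial and carnitine, -0.13 for the peroxisomal and -0.16 for the assembly list. The values highest in DiBA, after Cpt1c, were Far1 at 0.60, Acsl4 at 0.23 and Agps at 0.21. The lowest was Acot4, a peroxisomal thioesterase, at -0.76, with 58.0 in DiBA and 99.0 in BA, or -0.51 with DiBA raised to 69.2. Then came Acad12 at -0.35, Pxmp2 at -0.32 and Pex10 at -0.31. Other genes at the ends of the lists lay between -0.30 (Tysnd1) and 0.05 (Slc25a17).

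**Figure D4:**
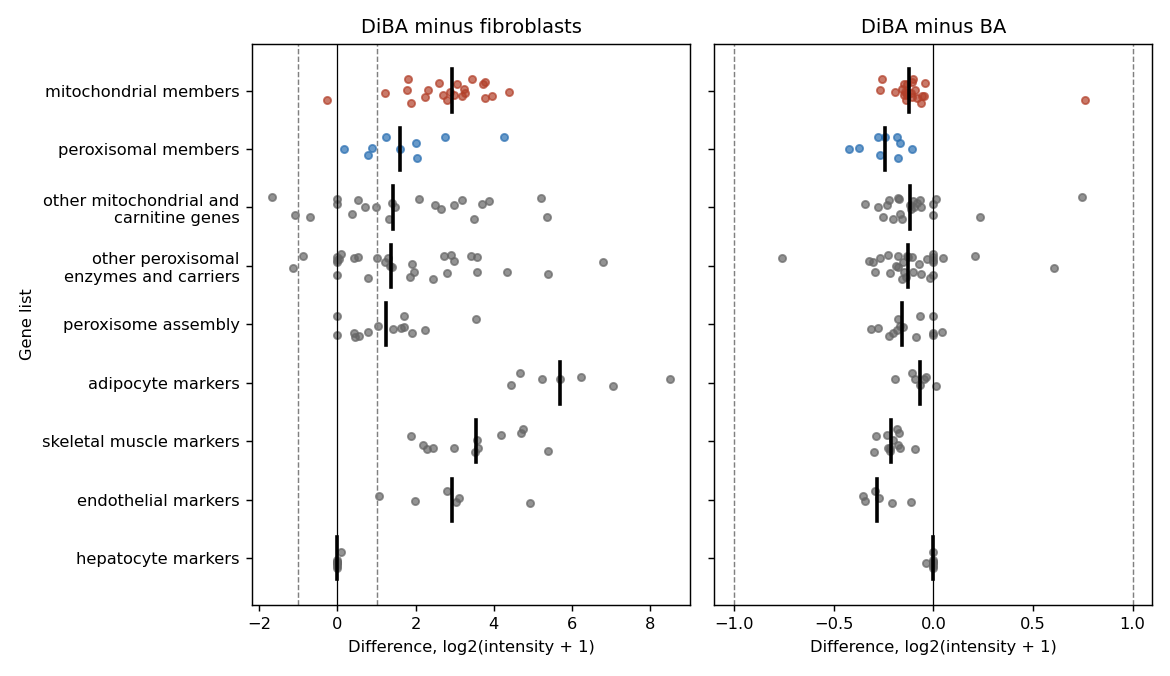
Differences of log2(intensity + 1), DiBA minus fibroblasts (left) and DiBA minus BA (right), 1 point per gene measured and a black bar at each list's median, with dashed lines at 2-fold. Against fibroblasts the medians are 2.93 for mitochondrial and 1.59 for peroxisomal members, beside 5.69 for adipocyte, 3.55 for skeletal muscle, 2.92 for endothelial and 0.00 for hepatocyte markers.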

How the data were processed

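Total RNA was labelled with biotin and hybridised to 3 single-colour Affymetrix arrays, 1 per sample. The authors deposited 1 linear intensity per probe set and array, and per the submitters' processing notes the software was Affymetrix Expression Console. Its version and the handling of background and array differences were not stated in the sources used here. No scaling was added, as array medians differed little. The platform annotation listed 23410 of 28943 probe sets, 21789 with 1 symbol and 1621 with several, which name no gene. Of the 21789, 21698 matched RefSeq (GRCm38.p6) by gene ID and 0 symbols differed.

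Intensities were taken as log2(intensity + 1), probe sets of a gene were averaged, and pairs of arrays were subtracted (Python 3.11.15, pandas 2.3.3). A call needed 2-fold and 69.2 on the brighter array. The calling steps were also run on simulated arrays, with assumed noise and known folds planted in bright genes. That run does not measure the error of these 3 arrays. Members, compartments, lists and the naming rule (all members, and the 3 highest and 3 lowest genes of each pathway list in each comparison) were chosen with earlier results of these data known. Alternatives covered centring, quantile normalization, filters, low intensities raised to 69.2, the pseudocount, the brightest probe set, thresholds and compartments. No protein sequences were used here, so a planned search for peroxisomal targeting signals was not made.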

Additional observations from a re-analysis of the deposited data

Results flagged for a closer look

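The probe set that Cpt1b shares with the read-through transcript Gm44502 was used in no count, yet it read 4387 in DiBA and 4699 in BA, against 70.9 in fibroblasts. The DiBA difference of 5.93 on the log2 scale was singled out because it is a signal outside the measured genes that lies above the fibroblast level, and it exceeds the 4.39 of Acadvl. In DiBA it was 93.4% of its BA value. With 1 array a group, no sample could be set against others of its group.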

How the results depend on the processing

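Of the member counts, medians and compartment gaps recomputed under the alternatives, 96 stayed near their value (counts within 1.5 times, medians and gaps within 0.1) and 9 moved further. With a pseudocount of 16 the median difference of DiBA from fibroblasts was 2.58 and 0 genes were lower in BA, and at a 3-fold threshold 0 were lower as well. At 1.5-fold, 1 gene of the 31, Cpt1a, differed between DiBA and BA. Shares of all genes were counted only at 2-fold with the main settings. The gap between mitochondrial and peroxisomal medians against fibroblasts was 1.60 in DiBA and 1.55 in BA without Mlycd, Crat and Eci2, 1.25 in BA with those moved to the other compartment, and 1.01 in DiBA and 0.853 in BA as a difference of means. Of the single-gene differences, 463 kept their side of 2-fold and 2 fell short of it: Acaa1b in BA at 0.63 with low intensities raised to 69.2, and Cpt1a in BA at -0.99 with a pseudocount of 16. None changed sign, though that of Acox2 was 0 in all 3 comparisons with low intensities raised. Counting the probe set shared by Cpt1b, an alternative chosen after seeing the data, was among those that stayed near. Centring each array on its median moved the median of all genes by -0.08 in DiBA, against fibroblasts and against BA, and the median of the 31 genes between DiBA and BA to -0.21. With low intensities raised, the compartment gap between DiBA and BA was 0.062. No paired analysis was possible because each group holds 1 array. The 3 arrays give no replicate error.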

Other observations

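The lowest differences from fibroblasts among the further peroxisomal genes were those of Far1 and Agps, which act in ether lipid synthesis. Far1, which makes the fatty alcohol, read 339.8 in DiBA and 223 in BA, against 753 in fibroblasts. Agps, which inserts it, read 255 in DiBA and 220.2 in BA, against 469 in fibroblasts. Far1 was at least 2-fold lower than in fibroblasts in both DiBA (-1.15) and BA (-1.75), and Agps in BA alone (-1.09, with -0.88 in DiBA).

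Identical intensities on different arrays were common in the deposited table, on 47.3% of probe sets for DiBA and BA, 39.5% for DiBA and fibroblasts and 37.0% for BA and fibroblasts. None of the 32 probe sets of the 31 oxidation genes was among them in any of the 3 pairs.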
